A study of Mus musculus with 1666 samples.

Results

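The D cyclins and the cyclin-dependent kinase inhibitors were followed at single-cell level in the whisker follicle of the embryonic mouse. The set was 9 genes of the 49662 gene symbols in the expression table: the inhibitors Cdkn1a, Cdkn1b, Cdkn2a, Cdkn2b, Cdkn2c and Cdkn2d, and the D cyclins Ccnd1, Ccnd2 and Ccnd3. The genes were taken by name, and all 9 had a row. The whisker follicle is a large sensory hair follicle that starts as a thickening of the embryonic epithelium and grows down into the dermis. Single cells were profiled with RamDA-seq, which reads whole transcripts of polyadenylated and other RNA. The deposited unit is TPM, a read count scaled to transcript length and to a common library total, so levels of different genes can be compared.

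The embryos came from a transgenic mouse line that carries Kikume Green-Red, a photoconvertible fluorescent protein, in the nucleus, and no other genotype, strain or treatment is given. Single whole whisker follicles were converted from green to red by light, and cells were sorted for ITGA6, an integrin of basal epithelial cells, and against CD31, an endothelial protein. There were 7 stages, named by embryonic day (E). The first was E11.5, whose cells were taken without photoconversion. At the other stages the sort also required the red protein; these were E12.0 and E13.0, then E13.5 and E14.0, then E15.0 and lastly E17.0. Of 1666 labelled cells, 52 were marked as low quality by the submitters and left out, and 1614 cells on 18 plates were used. Fibroblast-like cells had Col3a1 at 50 TPM or more, Pdgfra at 10 TPM or more and Trp63 under 10 TPM, and there were 417 of them. Epithelial cells had Krt5 and Trp63 at 10 TPM or more and Col3a1 under 50 TPM, and there were 1035 of them. A further 162 cells met neither rule. Among epithelial cells, 396 had Mki67, a marker of cycling cells, at 10 TPM or more and 377 had it under 1 TPM. Epithelial cells were also divided by Shh, the ligand made by the growing tip of the follicle (142 cells at 10 TPM or more, 826 under 1 TPM), and by Krt10, a keratin of suprabasal cells (135 cells at 10 TPM or more, 257 under 1 TPM).

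Most markers that took no part in these rules fitted the class names. The median level of Krt14 was 0 TPM in fibroblast-like cells and 279 TPM in epithelial cells, and that of Col1a1 was 959 TPM in fibroblast-like cells and 0.167 TPM in epithelial cells. The 7 fibroblast markers summed to 840 to 3812 TPM by stage in fibroblast-like cells and to 13 to 175 TPM in epithelial cells. Of these, Dcn separated the classes little, at 10 TPM or more in 32.4% of fibroblast-like and 26.3% of epithelial cells. Col1a2 reached 10 TPM in 100% of fibroblast-like and 28% of epithelial cells. The epithelial marker Itga6 reached it in 96.3% of epithelial and 48.4% of fibroblast-like cells. Cells of both classes had passed the sort for its protein, so Itga6 is no independent check of the classes. The fibroblast-like cells numbered 14, 0, 210, 2, 19, 126 and 46 from E11.5 to E17.0, and the epithelial cells numbered 54, 267, 53, 159, 144, 178 and 180. Plate 1 of E15.0 stood apart from the other E15.0 plates, with 73 fibroblast-like and 10 epithelial cells among its 90. Its make-up was near that of the E13.0 plates, which held 63, 73 and 74 fibroblast-like and 23, 16 and 14 epithelial cells. Since no label ties a cell to an embryo or litter, a stage counts as 1 sample, the spread between plates is given as a range and is not a replicate error, and tests run over stages. Epithelial cells had a median of between 16497 (E17.0) and 19489 (E12.0) genes at 1 TPM or more, and the read depth behind the TPM values is unknown.

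D cyclins bind the kinases CDK4 and CDK6 in early G1, and the active kinase phosphorylates the retinoblastoma family, which frees E2F factors to switch on genes for DNA replication. The INK4 inhibitors encoded by Cdkn2a, Cdkn2b, Cdkn2c and Cdkn2d (p16, p15, p18 and p19) bind CDK4 and CDK6 and keep D cyclins out, whereas the Cip/Kip inhibitors encoded by Cdkn1a, Cdkn1b and Cdkn1c (p21, p27 and p57) bind whole cyclin-kinase complexes, chiefly those of CDK2. In skin these inhibitors are known for marking the exit of keratinocytes from the cell cycle and for the arrest that follows damage or ageing.

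The sequences before the start sites of 2 members are shown because they are the inhibitors whose levels the results below turn on: Cdkn1a, the p21 gene, which lies at chr17:29090976-29100727 on the plus strand, and Cdkn2c, the p18 gene, which lies at chr4:109660876-109667189 on the minus strand (GENCODE M21 annotation of GRCm38). Each line gives the 250 bases before a RefSeq start site (GRCm38.p6, the mm10 build), 5′ to 3′ on the strand of the gene, and each of these genes has a pair of start sites. The windows are chr17:29090729-29090978 and chr17:29093519-29093768 for Cdkn1a, and chr4:109665373-109665622 and chr4:109666757-109667006 for Cdkn2c. Capitals mark matches, on either strand, to CATGNNNNNNCATG, the spaced pair found in many p53 binding sites, and to GGGCGG, the core of Sp1 sites; the motifs share no bases in these windows.
Cdkn1a start 1: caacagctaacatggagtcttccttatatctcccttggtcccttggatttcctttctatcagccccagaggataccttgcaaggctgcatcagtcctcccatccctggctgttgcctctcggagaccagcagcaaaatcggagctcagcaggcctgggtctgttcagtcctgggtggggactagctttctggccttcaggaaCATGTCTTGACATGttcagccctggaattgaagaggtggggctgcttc
Cdkn1a start 2: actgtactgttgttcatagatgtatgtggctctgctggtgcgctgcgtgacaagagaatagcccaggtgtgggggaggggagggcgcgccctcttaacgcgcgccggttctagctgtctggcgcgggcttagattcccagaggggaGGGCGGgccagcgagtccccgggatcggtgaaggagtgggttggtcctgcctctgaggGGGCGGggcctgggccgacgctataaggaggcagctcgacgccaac
Cdkn2c start 1: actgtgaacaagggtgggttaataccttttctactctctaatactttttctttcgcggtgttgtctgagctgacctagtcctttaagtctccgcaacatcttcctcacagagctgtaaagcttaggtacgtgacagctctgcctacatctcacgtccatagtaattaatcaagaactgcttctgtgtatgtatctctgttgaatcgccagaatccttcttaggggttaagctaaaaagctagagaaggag
Cdkn2c start 2: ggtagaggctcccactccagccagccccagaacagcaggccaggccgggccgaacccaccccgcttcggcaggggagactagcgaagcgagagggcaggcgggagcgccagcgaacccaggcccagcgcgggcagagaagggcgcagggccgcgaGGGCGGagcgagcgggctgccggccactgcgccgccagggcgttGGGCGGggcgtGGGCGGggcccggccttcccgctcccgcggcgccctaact

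The first Cdkn1a window held the p53-type spacing from 48 to 35 bases before the start, with 2 CG dinucleotides and a G+C content of 54%. The second Cdkn1a window held 2 GGGCGG matches and 19 CG dinucleotides. The first Cdkn2c window held neither motif and had a G+C content of 42.8% with 6 CG dinucleotides, and the second held 3 GGGCGG matches and 29 CG dinucleotides at 77.2% G+C. Of 32851 RefSeq windows of the same length, 0.490% held CATGNNNNNNCATG and 32.7% held GGGCGG. A match describes letters only. Entries were found for 7 of the 9 members, in 11 windows; none was found for Ccnd1 and Ccnd2.

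Cdkn2a also has a pair of starts, and each starts a different product: INK4 protein p16 from one and the p53 activator ARF from the other. The expression table sums reads over the gene, at chr4:89274471-89294653 on the minus strand, so these products could not be told apart. Cdkn2b lies beside it at chr4:89306299-89311039, also on the minus strand. In the same annotation Cdkn1b lies at chr6:134920401-134925513 (plus strand) and Cdkn2d at chr9:21288410-21291407 (minus strand). The D cyclin genes lie at chr7:144929931-144939925 (Ccnd1, minus strand), chr6:127125162-127152193 (Ccnd2, minus strand) and chr17:47505051-47599691 (Ccnd3, plus strand).

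Among the D cyclins, Ccnd2 was the most abundant in epithelial cells at each of the 7 stages. In stage order its means were 527, 464, 157, 129, 124, 166 and 160 TPM. The step came between E12.0 and E13.0: the mean at E13.0 was 0.338 of that at E12.0, and the E13.0 plates (146 to 170.8 TPM) lay wholly below the E12.0 plates (452 to 481 TPM). From E13.0 onwards the stage means stayed between 124 and 166 TPM.

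Ccnd3, the D cyclin found in the widest range of tissues, averaged 230, 149, 117, 115, 96.5, 96.3 and 93.1 TPM from E11.5 to E17.0. Its stage means came down in the order of the stages, but the plates overlapped between most neighbouring stages; the E13.5 plates lay wholly above those of E14.0, and the lone E11.5 plate lay above those of E12.0. Ccnd1, a classical target of growth factor and Wnt signals, averaged 42.5, 70.4, 88.6, 38.7, 59.7, 59.2 and 94.1 TPM over the same stages. Its highest stages were E17.0 and E13.0, whose plates overlapped, and its lowest was E13.5.

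The make-up of the D cyclin pool was followed over the stages. The 3 D cyclins summed to 799 TPM at E11.5 and 683 TPM at E12.0, and to between 280 and 363 TPM at the later stages. From E11.5 to E17.0, Ccnd2 made up 65.9%, 67.9%, 43.2%, 45.6%, 44.2%, 51.6% and 46.1% of that sum. The Ccnd1 share was 5.31%, 10.3%, 24.4%, 13.7%, 21.3%, 18.4% and 27.1% over those stages. Within single cells, all 3 D cyclins were at 10 TPM or more in 332 of 417 fibroblast-like cells (79.6%) and in 775 of 1035 epithelial cells (74.9%). The highest of the 3 in an epithelial cell was Ccnd2 in 678 cells (65.5%), Ccnd3 in 275 (26.6%) and Ccnd1 in 82 (7.92%).

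**Figure D1:**
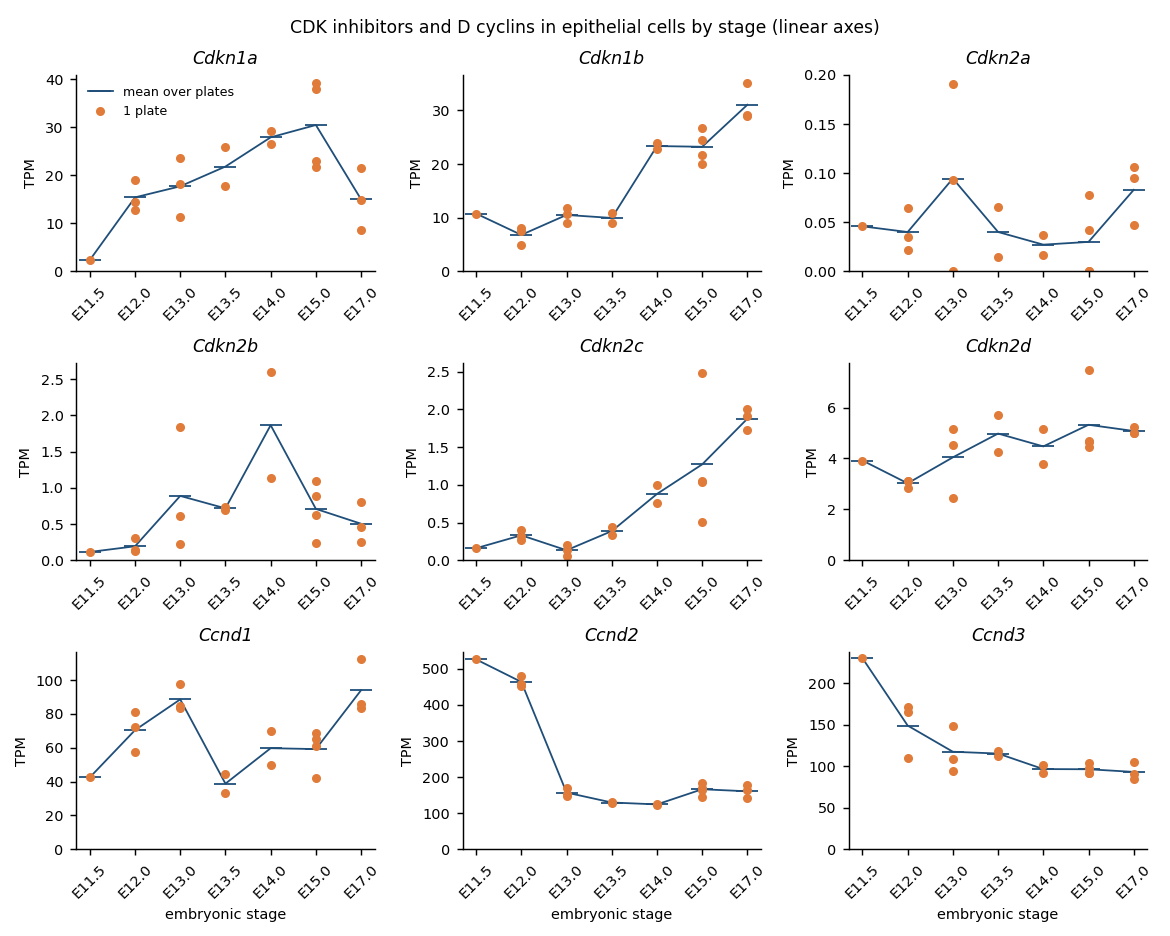
Mean level of each of the 9 genes in epithelial cells by embryonic stage (y axis, TPM; x axis, stage). Lines and ticks give the stage means and points are plates; every axis is linear. Ccnd2 stands at 157 TPM at E13.0 and at 464 TPM at E12.0, and Cdkn1b is lowest at E12.0 (6.81 TPM) and highest at E17.0 (31 TPM).

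**Figure D2:**
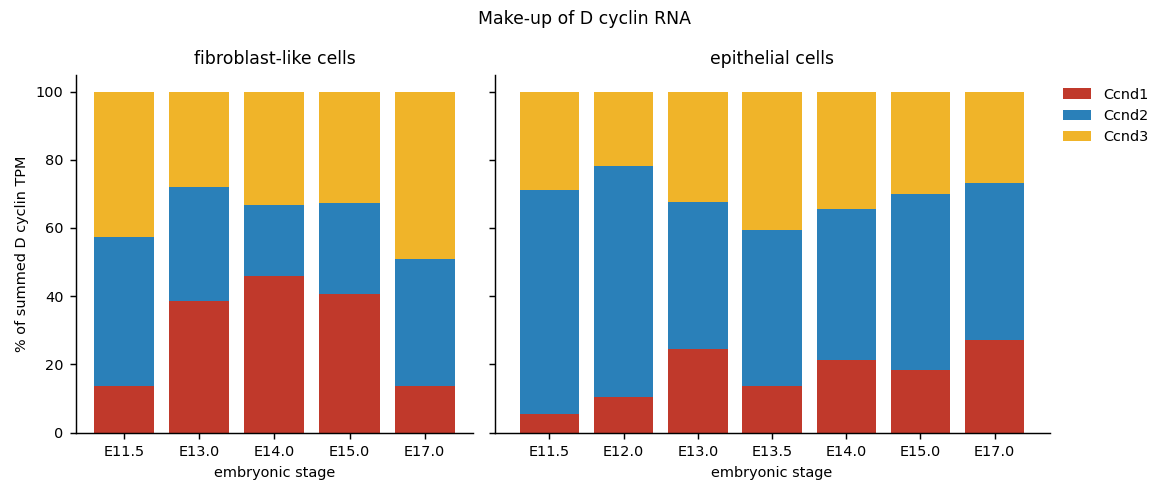
Share of the summed D cyclin TPM held by Ccnd1, Ccnd2 and Ccnd3 (y axis, percent) by stage (x axis) in fibroblast-like and epithelial cells. Ccnd2 holds 65.9% and 67.9% in epithelial cells at E11.5 and E12.0 and 43.2% to 51.6% later, and Ccnd1 holds 38.6% to 45.8% in fibroblast-like cells at E13.0, E14.0 and E15.0.

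Cdkn1b, the p27 gene, is a Cip/Kip inhibitor. Its stage means in order were 10.8, 6.81, 10.5, 9.96, 23.4, 23.2 and 31 TPM. The stages up to E13.5 lay below those from E14.0 onwards. The share of epithelial cells with Cdkn1b at 10 TPM or more was 53.7%, 18.4%, 47.2%, 38.4%, 68.8%, 73% and 93.3% at those stages.

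Cdkn1a, the p21 gene, had stage means of 2.38, 15.4, 17.7, 21.8, 27.9, 30.5 and 15 TPM from E11.5 to E17.0. E11.5 was the lowest stage and E12.0 was 6.49 times as high, with Cdkn1a at 1 TPM or more in 86.5% of E12.0 cells and 25.9% of E11.5 cells. The photoconversion step and the stage cannot be told apart between E12.0 and E11.5, and E11.5 had 1 plate. In the same pair of stages 15 of 17 genes of p53 and its targets were at 1 TPM or more; 2 were over 2-fold higher at E12.0 (Bbc3, a pro-apoptotic BH3 gene, at 1.07 log2 and Rrm2b, a ribonucleotide reductase subunit, at 1.10 log2) and 1 was over 2-fold lower (Phlda3, an inhibitor of AKT, at -1.24 log2). Their median was -0.26 log2, against 0.03 log2 over 24272 genes, of which 11.8% were over 2-fold higher and 3.93% over 2-fold lower; the median cell had 19489 genes at 1 TPM or more at E12.0 and 17178 at E11.5.

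The INK4 genes were low. Cdkn2a averaged between 0.0273 TPM at E14.0 and 0.0946 TPM at E13.0 in epithelial cells. It was at 1 TPM or more in 40 of 417 fibroblast-like cells (9.59%), 28 of the 162 cells of neither class (17.3%) and 30 of 1035 epithelial cells (2.90%), and no epithelial cell reached 10 TPM. Cdkn2b averaged 0.115, 0.193, 0.888, 0.716, 1.86, 0.709 and 0.504 TPM from E11.5 to E17.0, with 4.49% to 13.2% of epithelial cells at 1 TPM or more; single cells reached up to 92.4 TPM.

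Cdkn2c had stage means of 0.16, 0.331, 0.133, 0.386, 0.879, 1.27 and 1.88 TPM from E11.5 to E17.0. The share of epithelial cells at 1 TPM or more was 7.41%, 10.9%, 5.66%, 8.18%, 18.8%, 20.2% and 28.9% at those stages, so the latest 3 stages were the highest by either measure. Cdkn2d, the p19 INK4 gene, was the most abundant INK4 gene at every stage, between 3.02 TPM at E12.0 and 5.32 TPM at E15.0, and its plates overlapped between most stages. None of the 6 inhibitors of the set was at 10 TPM or more in 251 of 1035 epithelial cells (24.3%), and this share was 44.4%, 36%, 35.8%, 32.1%, 21.5%, 15.2% and 1.67% in stage order. Cdkn1c is outside the set and was not counted. It went the other way, at 10 TPM or more in 100%, 96.6%, 84.9%, 85.5%, 68.1%, 51.7% and 30.6% of epithelial cells.

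None of the members tested passed for a linear trend over the stages in epithelial cells. The limma fit on log2(TPM + 1) stage means, a scale that understates changes of low genes, covered the 6 members that averaged at least 1 TPM; Cdkn2a, Cdkn2b and Cdkn2c did not reach that level. Across all genes 443 of 23671 passed at an adjusted p of 0.05 or less (1.87%), 290 upwards and 153 downwards. The Cdkn1b slope was 0.36 ± 0.08 log2 per day (SE, 7 stages, adjusted p = 0.0709), that of Ccnd3 was -0.20 (adjusted p = 0.119, and 0.0324 with stage rank in place of day) and that of Ccnd2 was -0.30 (adjusted p = 0.263). Cdkn1a, Cdkn2d and Ccnd1 had slopes of 0.29, 0.09 and 0.12 with adjusted p of 0.433, 0.305 and 0.495. Of the genes around them, Cdkn1c, the p57 gene and the remaining Cip/Kip inhibitor, fell by 0.61 log2 per day (adjusted p = 0.0114, and 0.0506 with no filter), with stage means of 102, 66.9, 62.6, 60.7, 31.4, 17.9 and 9.35 TPM. The summed level of 6 suprabasal keratinocyte markers in epithelial cells ranged from 8.11 to 811 TPM between stages and that of 5 inner root sheath markers from 0.518 to 110 TPM; their part in these stage levels was not tested.

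Expression of the inhibitors and D cyclins was then compared between epithelial cells with and without the cycling marker Mki67. Cdkn2c and Cdkn2d were higher in cells with Mki67 at 10 TPM or more (Mki67-high) than in cells with Mki67 under 1 TPM (Mki67-low), whereas none of the D cyclins passed the test. E13.0 was dropped from this fit because its 10 cells with Mki67 at 10 TPM or more were spread over plates with under 5 each, so 6 stages entered.

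Cdkn2c averaged 0.344, 0.419, 1.25, 2.21, 2.49 and 6.01 TPM in Mki67-high cells over these 6 stages in order, against 0.0326, 0.1, 0.107, 0.2, 0.432 and 0.25 TPM in Mki67-low cells. It was higher in Mki67-high cells at 6 of 6 stages, and the stage means of the classes overlapped only through the low E11.5 and E12.0 values. The share of cells at 1 TPM or more was 15.8%, 14.3%, 23.1%, 47.1%, 40.4% and 69.2% in Mki67-high cells, against 0%, 2.94%, 1.37%, 3.33%, 12% and 8.99% in Mki67-low cells; 0 of 24 cells allows a share of up to 12.5%. The fitted difference was 1.16 ± 0.27 log2 (SE, adjusted p = 0.0398). Cdkn2c averaged at least 1 TPM in this fit only through its Mki67-high cells, so its passing is not independent of that filter; with no filter its adjusted p was 0.126.

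Cdkn2d averaged 5.67, 3.42, 5.03, 7.65, 5.95 and 8.4 TPM in Mki67-high cells at those stages, against 2.68, 2.17, 4.91, 3.15, 4.18 and 3.85 TPM in Mki67-low cells. It too was higher at 6 of 6 stages, though the E13.5 values lay close together and the ranges over stages overlapped. The fitted difference was 0.63 ± 0.15 log2 (adjusted p = 0.0419), and 0.113 was the adjusted p with no filter. Cdkn2c missed the threshold when E13.5, E14.0 or E15.0 was left out (adjusted p = 0.0993, 0.112 and 0.113), and without E17.0 it missed the 1 TPM filter. Cdkn2d missed the threshold when E11.5, E12.0, E14.0, E15.0 or E17.0 was left out (0.0972, 0.0750, 0.118, 0.0901 and 0.106).

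The 2 of 7 tested members that passed stand against 1594 of 23661 genes (6.74%), of which 1305 were higher and 289 lower in Mki67-high cells; after rescaling to protein-coding genes the split was 992 higher and 661 lower. Cdkn1b averaged 11.7, 7.56, 16.4, 37.1, 29.2 and 35.2 TPM in Mki67-high cells, against 9.52, 5.59, 7.67, 14.8, 18 and 31.3 TPM in Mki67-low cells. It was higher in Mki67-high cells at 6 of 6 stages and missed the threshold, at 0.63 log2 with an adjusted p of 0.0523.

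None of the D cyclins had the same direction at all 6 stages. Ccnd2 averaged 336, 443, 102, 103, 154 and 165 TPM in Mki67-high cells, against 583, 496, 130, 148, 167 and 138 TPM in Mki67-low cells, a difference of -0.28 log2 (adjusted p = 0.238). It was lower in Mki67-high cells at 5 stages and higher at E17.0. Ccnd1 averaged 18.8, 62.9, 31.8, 64, 67.1 and 105 TPM in Mki67-high cells, against 48, 79.8, 32, 59.1, 53.8 and 69.5 TPM in Mki67-low cells: it was the lower of the pair at E11.5 and E12.0 and the higher from E14.0. Its difference of -0.11 log2 and that of Ccnd3, at -0.13 log2, had adjusted p of 0.832 and 0.654. Cdkn1a, at 0.10 log2 (adjusted p = 0.894), changed side between stages, with 37.1 TPM in Mki67-high and 19.7 TPM in Mki67-low cells at E14.0 but 11.2 and 27 TPM at E13.5.

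**Figure D3:**
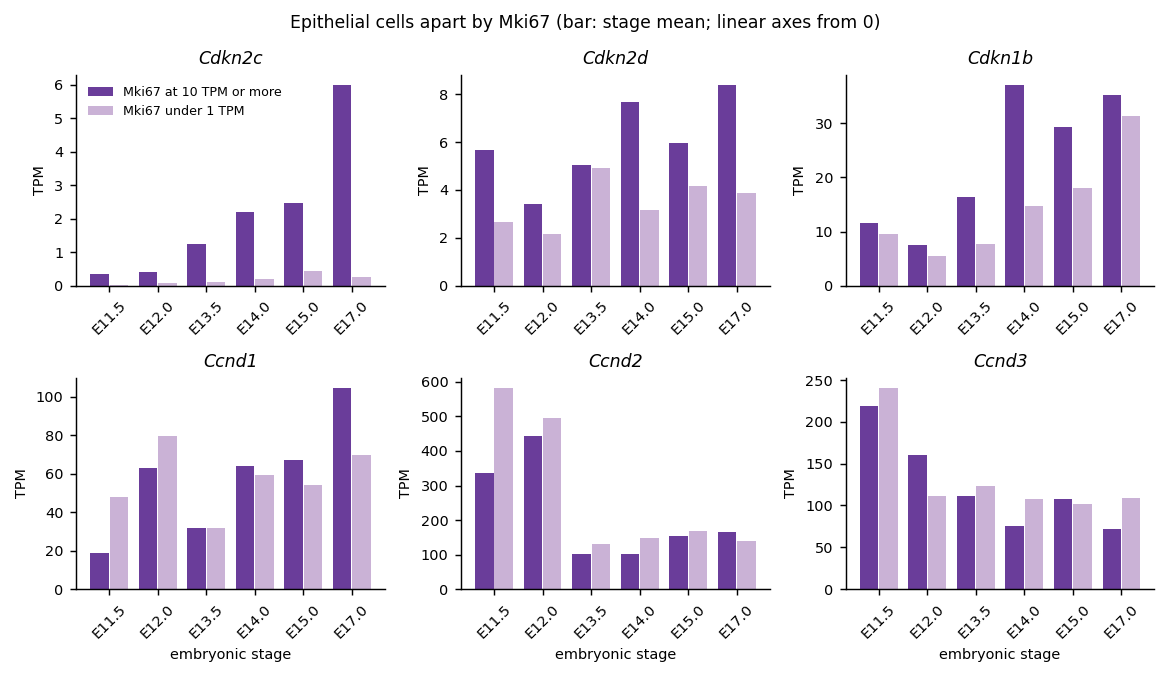
Bars give stage mean levels (y axes, TPM, linear from 0) of 6 members by stage (x axis) in epithelial cells with Mki67 at 10 TPM or more (dark) and under 1 TPM (pale). Cdkn2c, Cdkn2d and Cdkn1b lie higher in the Mki67-high cells at each of the 6 stages, while Ccnd1, Ccnd2 and Ccnd3 change order between stages.

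The partners of these genes gave a reference for the comparison by Mki67. Of 9 CDK and cyclin partners, 7 were higher in Mki67-high cells, led by the mitotic cyclins Ccnb1 (4.03 log2) and Ccnb2 (3.98 log2) and the mitotic kinase Cdk1 (3.83 log2); the median was 1.53 log2, against 0.02 log2 over all genes tested. The D cyclin kinases did not pass, at 0.40 log2 for Cdk4 (adjusted p = 0.0689) and -0.18 log2 for Cdk6 (adjusted p = 0.551). Of 11 pocket protein and E2F genes, 5 were higher (E2f2 at 2.85, E2f8 at 2.10, E2f1 at 1.27, E2f7 at 1.10 and E2f3 at 0.65 log2), while the retinoblastoma gene Rb1 stood at -0.01 log2 (adjusted p = 0.969). Of 7 ubiquitin ligase parts that act on these proteins, 3 were higher, Dtl at 1.69 log2, Cks1b at 1.08 log2 and Skp2, which targets p27, at 1.001 log2. Ambra1, which targets D cyclins, was lower at -0.30 log2 (adjusted p = 0.0211).

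None of 15 tested genes of p53 and its targets passed in either direction in that comparison. Of 10 Polycomb regulators of the Cdkn2a and Cdkn2b locus, 3 were higher: Ezh2 at 0.84, Cbx2 at 0.67 and Suz12 at 0.66 log2. Of 12 proliferation genes other than Mki67, 11 were higher and Mcm2, a helicase subunit of replication origins, was at 0.98 log2 with an adjusted p of 0.0816. The inner root sheath markers summed to 0.425 to 155.5 TPM by stage in Mki67-high cells and 0.514 to 13.2 TPM in Mki67-low cells, and the suprabasal markers to 8.19 to 192 TPM and 8.13 to 1206 TPM; their part in these differences was not tested.

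Within Mki67-high cells, Cdkn2c rose with stage, at 0.44 ± 0.05 log2 per day over the 6 stages without E13.0 (SE, adjusted p = 0.0421); 124 of 23575 genes passed there (0.526%). That call rested on every stage: with 1 stage left out the adjusted p lay between 0.0613 without E14.0 and 0.148 without E11.5 (0.106 without E12.0, 0.0803 without E13.5, 0.133 without E15.0 and 0.0812 without E17.0). Cdkn2c averaged 0.344 TPM at E11.5 and 0.419 TPM at E12.0 in these cells. It reached the 1 TPM filter there through the later stages, so its passing is not independent of that filter. This trend was not fitted without the filter. Within Mki67-low cells none of the members passed, and Cdkn1b came nearest at 0.38 log2 per day (adjusted p = 0.0589); 361 of 23536 genes passed (1.53%), 258 upwards and 103 downwards, and 293 and 208 after rescaling to protein-coding genes. Among the listed genes, the helicase subunits Mcm2, Mcm3 and Mcm5 fell there by 0.46, 0.57 and 0.52 log2 per day and Dtl fell by 0.38.

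The difference between these classes was itself tested for a trend over the same 6 stages, and no gene passed (limma, 0 of 23661, 0%), with 1733 at an unadjusted p under 0.05. Cdkn2c had the smallest p of the members, at 0.38 log2 per day (adjusted p = 0.308). Its Mki67-high over Mki67-low difference was therefore not shown to vary with stage after adjustment.

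At the 5 stages with enough fibroblast-like and epithelial cells, Cdkn2c was again the member that differed. It averaged 0.528 TPM at E11.5, 1.85 at E13.0, 3.65 at E14.0, 4.77 at E15.0 and 7.9 TPM at E17.0 in fibroblast-like cells, against 0.16, 0.133, 0.879, 1.27 and 1.88 TPM in epithelial cells. Fibroblast-like cells were higher at 5 of 5 stages, and at each of them by at least 3 times. The fitted difference was 1.20 ± 0.20 log2 (SE, adjusted p = 0.009). It reached the 1 TPM filter only through the fibroblast-like cells; with no filter the adjusted p was 0.0307. This was the only one of 7 tested members that passed, in a comparison in which 5152 of 24166 genes did (21.3%).

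Mki67 was at 10 TPM or more in 78.6%, 44.8%, 52.6%, 31.7% and 17.4% of fibroblast-like cells at these stages, against 35.2%, 18.9%, 35.4%, 32% and 28.9% of epithelial cells. This share was thus higher in fibroblast-like cells at the first 3 of these stages, about equal at E15.0 and lower at E17.0, while Cdkn2c was higher in them at each stage. In the same fit 5 of 12 proliferation genes were higher in fibroblast-like cells and none lower; their part in the Cdkn2c difference was not tested. Of 9 CDK and cyclin partners, 4 were higher (Cdk2, Cdk1 at 1.04, Ccna2 at 1.09 and Ccnb2 at 0.89 log2) and Cdk6 was lower at -1.27 log2 (adjusted p = 0.00472).

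Further genes around the members passed in this comparison. The pocket protein gene Rbl2 was higher at 0.75 log2, Skp2 at 0.69 log2, and the Polycomb genes Ezh2 and Rnf2 at 0.57 and 0.53 log2. Of 16 tested genes of p53 and its targets, 2 were lower in fibroblast-like cells, Phlda3 at -2.34 log2 and Trp53 itself at -0.40 log2.

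The D cyclins were compared between the same classes, and none passed. Ccnd1 averaged 55.5, 228, 173.5, 159 and 45.2 TPM in fibroblast-like cells at E11.5, E13.0, E14.0, E15.0 and E17.0, against 42.5, 88.6, 59.7, 59.2 and 94.1 TPM in epithelial cells. Fibroblast-like cells were thus higher at the first 4 of these stages and lower at E17.0, and the fitted difference was 0.72 log2 (adjusted p = 0.227); without E17.0 it was 1.16 log2 (adjusted p = 0.0262). Ccnd1 held 13.7%, 38.6%, 45.8%, 40.5% and 13.7% of the D cyclin sum in fibroblast-like cells. It was the highest D cyclin in 159 of 417 fibroblast-like cells (38.1%) and 82 of 1035 epithelial cells (7.92%), but the classes differ in their mix of stages.

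Ccnd2 averaged 177, 198, 78.9, 105 and 124 TPM in fibroblast-like cells, against 527, 157, 124, 166 and 160 TPM in epithelial cells (-0.58 log2, adjusted p = 0.143). The lower Ccnd2 level of epithelial cells at E13.0 against E12.0 could not be followed in fibroblast-like cells, which numbered 0 at E12.0. Ccnd3 averaged 173.4, 164, 126, 128 and 162 TPM in fibroblast-like cells, against 230, 117, 96.5, 96.3 and 93.1 TPM in epithelial cells (0.33 log2, adjusted p = 0.207); without E11.5, the stage where it was lower in fibroblast-like cells, the difference was 0.52 log2 (adjusted p = 0.0142).

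Cdkn1a averaged 0.093, 8.81, 14.5, 9.87 and 34.7 TPM in fibroblast-like cells, against 2.38, 17.7, 27.9, 30.5 and 15 TPM in epithelial cells (-0.77 log2, adjusted p = 0.223; -1.25 log2 and 0.0150 without E17.0). It was the lower of the pair up to E15.0 and the higher at E17.0, and 0 of 14 fibroblast-like cells at E11.5 reached 1 TPM, which allows a share of up to 21.4%. Cdkn1b averaged 11.2, 14.2, 25.3, 21 and 28 TPM in fibroblast-like cells, against 10.8, 10.5, 23.4, 23.2 and 31 TPM in epithelial cells, with a difference of 0.06 log2 (adjusted p = 0.755), and Cdkn2d differed by 0.00 log2 (adjusted p = 0.994). In both classes E14.0 and the stages after it held more Cdkn1b than E13.0. Leaving out plate 1 of E15.0 kept the called Cdkn2c difference at 1.25 log2 (adjusted p = 0.00924), and in the comparison by Mki67 gave 1.12 log2 for Cdkn2c and 0.62 log2 for Cdkn2d (adjusted p = 0.0435 and 0.0468).

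**Figure D4:**
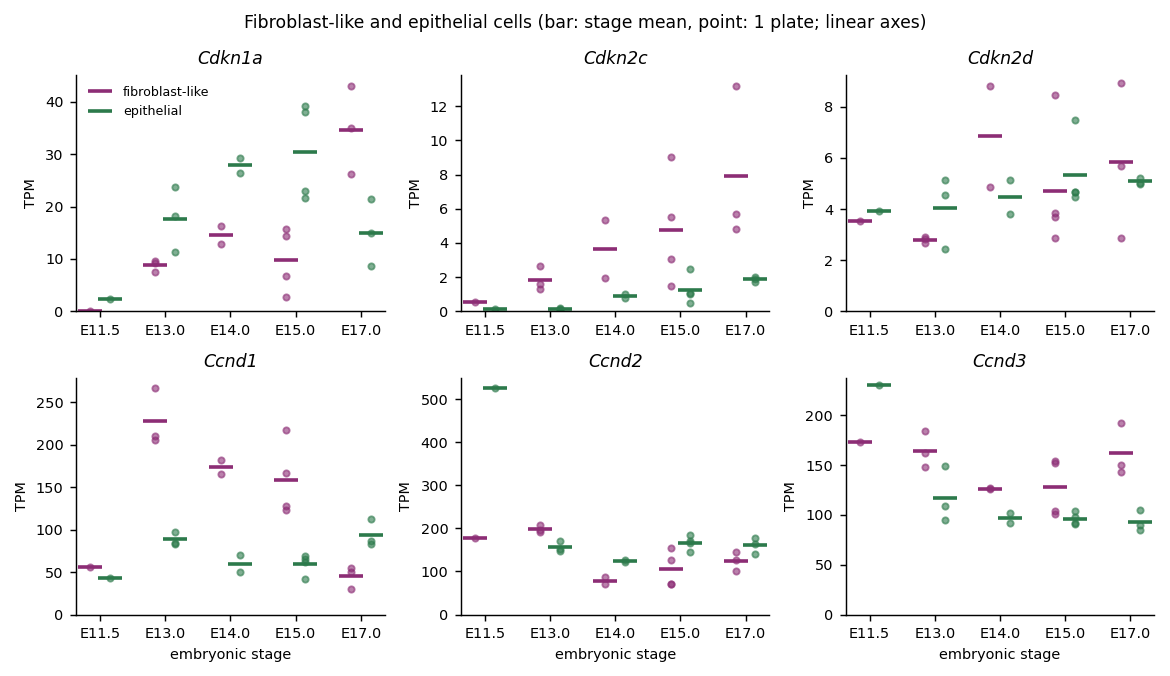
Levels (y axes, TPM, linear) of 6 members by stage (x axis) in fibroblast-like and epithelial cells, with bars for stage means and points for plates. The mean of Cdkn2c lies higher in fibroblast-like cells at each stage, and Ccnd1 and Cdkn1a change order at E17.0.

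Epithelial cells were next compared by Krt10 and by Shh, and no member passed the test in either comparison. Krt10-high and Shh-high cells are those with at least 10 TPM of the gene, and Krt10-low and Shh-low cells those under 1 TPM. Cdkn1a averaged 18.7, 63.3, 67.4, 60.2 and 59.5 TPM in Krt10-high cells at E12.0 and at the 4 stages from E13.5 onwards, against 13.8, 6.25, 18.4, 25.6 and 5.92 TPM in Krt10-low cells. Krt10-high cells were higher at 5 of 5 stages, and the fitted difference was 1.94 log2 (adjusted p = 0.346). No gene passed in this comparison (limma, 0 of 23884, 0%), although 2436 had an unadjusted p under 0.05.

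Cdkn2b, the p15 gene and a target of TGF-beta signals in keratinocytes, reached the filter only here and through the Krt10-high cells. It averaged 1.25, 1.90, 7.39, 1.79 and 0.702 TPM in Krt10-high cells, against 0.206, 0, 0.342, 0.886 and 0.234 TPM in Krt10-low cells, and its difference was 1.22 log2 (adjusted p = 0.360). It was listed at 0 in all 34 Krt10-low cells of E13.5. The mean of Krt10-high cells was the higher at each stage, but it rested on few cells. Cdkn2b was at 1 TPM or more in 2 of 17 Krt10-high cells at E12.0 and 10 of 29 at E14.0, where the highest cell had 92.4 TPM. At E17.0 it was so in 1 of 14 Krt10-high cells, with plates at 0 and 1.40 TPM.

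Ccnd2 averaged 472, 56.3, 60.7, 131 and 142 TPM in Krt10-high cells, against 487, 152, 134, 181 and 153 TPM in Krt10-low cells (-0.63 log2, adjusted p = 0.429), and Ccnd1 averaged 51, 34.5, 27.1, 27.9 and 83.3 TPM, against 77.3, 37.2, 90.7, 60.7 and 87.1 TPM in Krt10-low cells (-0.71 log2, adjusted p = 0.431). Ccnd3 averaged 139, 131, 134, 122 and 89 TPM in Krt10-high cells, against 144, 117, 81.9, 84.5 and 96 TPM in Krt10-low cells. Ccnd3 was the highest D cyclin in 70 of 135 Krt10-high cells (51.9%) and 52 of 257 Krt10-low cells (20.2%). At E14.0 alone this was 23 of 29 Krt10-high cells (79.3%, exact 95% interval 60.3% to 92%) and 4 of 25 Krt10-low cells (16%, interval 4.54% to 36.1%); the intervals cover counting of cells only. The 6 suprabasal markers, Krt10 among them, summed to 19.1 to 3054 TPM by stage in Krt10-high cells and 4.79 to 251 TPM in Krt10-low cells. Mki67 was at 10 TPM or more in 88.2%, 18.9%, 20.7%, 47.4% and 14.3% of Krt10-high cells in stage order. The Krt10-low shares were 56.8%, 20.6%, 36%, 15.2% and 24.6%, and the part of cycling cells in the differences by Krt10 was not tested.

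Of the members compared by Shh, Ccnd3 came nearest to the threshold. Ccnd3 averaged 75.9 TPM at E12.0, 71.3 at E13.0, 64.4 at E14.0, 52.2 at E15.0 and 38.9 TPM at E17.0 in Shh-high cells, against 176, 123, 99.4, 100 and 105 TPM in Shh-low cells. It was lower in Shh-high cells at 5 of 5 stages with no overlap of the classes' stage ranges, at -0.99 log2 (adjusted p = 0.0664), and 41 of 23913 genes passed in this comparison (0.171%). The value at E13.0 rests on 1 plate. With the stage E12.0 left out the Ccnd3 difference was -0.93 log2 (adjusted p = 0.0418), and after rescaling to protein-coding genes it was -0.999 log2 (adjusted p = 0.0337).

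Ccnd1 averaged 74, 87.8, 142, 185 and 144 TPM in Shh-high cells, against 68.6, 85.7, 49.9, 49.9 and 81.1 TPM in Shh-low cells (0.86 log2, adjusted p = 0.251). Ccnd2 averaged 376, 197, 194, 342 and 263 TPM in Shh-high cells, against 493, 148, 118, 151 and 136 TPM in Shh-low cells (0.57 log2, adjusted p = 0.312; 0.81 log2 and 0.0485 without E12.0, the stage where it was lower). Both were at least as high in Shh-high cells from E13.0 onwards. Ccnd2 was the highest D cyclin in 100%, 75%, 72.7%, 86.7% and 71.9% of Shh-high cells at the 5 stages, against 91.4%, 46.2%, 45.7%, 55.8% and 52.2% of Shh-low cells. Over all stages Ccnd3 was the highest in 3 of 142 Shh-high cells (2.11%) and 262 of 826 Shh-low cells (31.7%). The classes differ in their mix of stages, with E12.0 giving 64 of the Shh-high and 175 of the Shh-low cells; at E14.0 alone Ccnd3 was the highest in 1 of 11 Shh-high and 52 of 127 Shh-low cells.

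Cdkn1a averaged 16.6, 14.2, 106, 104 and 31.8 TPM in Shh-high cells, against 15.3, 19.3, 21.7, 23 and 11.1 TPM in Shh-low cells (1.10 log2, adjusted p = 0.297). The classes were close at E12.0 and E13.0, and the plates of Shh-high cells lay wholly above those of Shh-low cells at E14.0 and E15.0. At E17.0 the Shh-high plates (6.43 to 51 TPM) enclosed the Shh-low plates (9.35 to 12.7 TPM). Mki67 was at 10 TPM or more in 32.8%, 41.7%, 90.9%, 60% and 71.9% of Shh-high cells at the 5 stages. The Shh-low shares were 74.9%, 7.69%, 29.9%, 29.2% and 18.8%, so the order of the classes turned after E12.0. The part of cycling cells in the differences by Shh was not tested. The 5 inner root sheath markers summed to 0.726 to 524 TPM by stage in Shh-high cells and 0.557 to 6.13 TPM in Shh-low cells, and the suprabasal markers to 7.54 to 8.55 TPM in Shh-high cells and 7.70 to 905 TPM in Shh-low cells; their part in these differences was not tested.

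**Figure D5:**
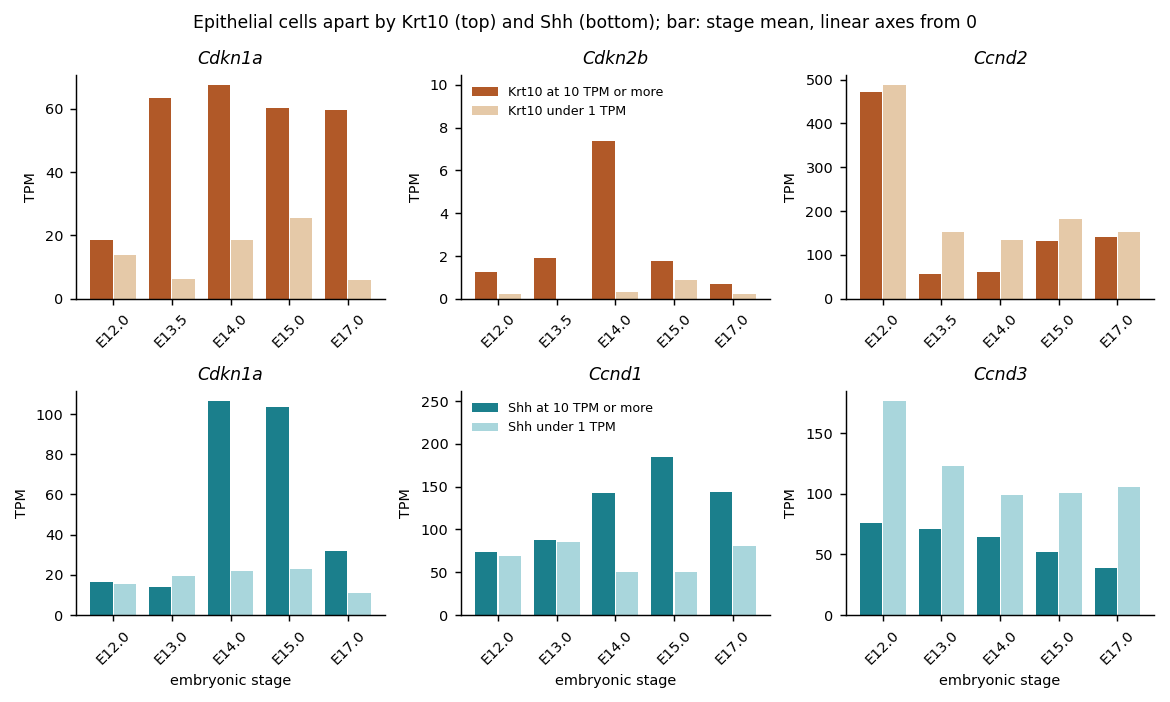
Bars give stage mean levels (y axes, TPM, linear from 0) by stage (x axis) of Cdkn1a, Cdkn2b and Ccnd2 in epithelial cells apart by Krt10 (top) and of Cdkn1a, Ccnd1 and Ccnd3 apart by Shh (bottom), with cells at 10 TPM or more in dark and under 1 TPM in pale colours. Cdkn1a lies higher in Krt10-high cells at each stage, and Ccnd3 lies lower in Shh-high cells at each stage.

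The cells with the most Cdkn1a included cells of both subsets. With a bound of 50 TPM, chosen after the values were seen, 99 of 1035 epithelial cells were counted (9.57%). Of these 99 cells 40 were Krt10-high (40.4%), 26 were Shh-high (26.3%), 2 were both and 35 were neither. Of the 936 cells under that bound 95 were Krt10-high (10.1%) and 116 were Shh-high (12.4%). Mki67 was at 10 TPM or more in 35.4% of the 99 cells and 38.6% of the 936 cells. These groups differ in their mix of stages, with E12.0 giving 10 of the 99 and 257 of the 936 cells. The Mki67 share was higher above the bound at E14.0 (50% against 32.8%), E15.0 (33.3% against 31.8%) and E17.0 (46.2% against 27.5%). It was lower above the bound at E13.5 (13% against 26.5%), E13.0, E12.0 and E11.5, where 1 cell was above it.

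Within plates, the genes that varied most like each member were read from rank correlations across epithelial cells, corrected for the number of genes detected (995 cells on 15 plates, 28748 genes compared, 7 members). Cells of a plate share library preparation and all values share TPM scaling, so these are descriptions. Cdkn2c went with the mitotic genes Ndc80 (0.44), Pbk (0.44) and Melk (0.41). For Cdkn2d the values were weaker, with Depdc1a at 0.22, Tubb5 at 0.21 and Ndc80 at 0.21. Cdkn1a went with Lad1, Klf5 and Grhl1, genes of epithelial differentiation and adhesion, at 0.33, 0.32 and 0.32.

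For Cdkn1b the nearest genes were the Wnt receptor Fzd7 (0.36), the tubulin gene Tubb5 (0.35) and the Wnt receptor Fzd2 (0.34). Ccnd1 was nearest to the neuropilin gene Nrp2 (0.37), to its own kinase partner Cdk4 (0.32) and to Ccnd2 (0.32). Ccnd2 was nearest to Ccnd1 (0.32), the hemidesmosomal collagen gene Col17a1 (0.29) and Rack1 (0.28). Ccnd3 was nearest to Anxa2 (0.44), Pdpn (0.33) and Col12a1 (0.32). The pair of Ccnd1 and Ccnd2 was positive on 15 of 15 plates, from 0.0322 to 0.606, while Cdkn1b and Ccnd2 stood at -0.18 and were above 0 on 1 of 15 plates.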

How the data were processed

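Each sample was 1 cell, and TPM values for all cells came from the authors' deposited table. The submitters' processing notes list the mm10 build and, among their tools, featureCounts (Subread 1.5.0), HISAT2 2.0.4 and bcl2fastq 1.0; the settings, the annotation and strand handling are not given in the sources used here. TPM keeps no read depth, so no counting error was attached to levels. Intervals on shares are exact (Clopper-Pearson, 95%) and cover the number of cells only. For a share of 0 the upper limit given is 3 cells of the total, an approximation. The exact upper limits were 14.2% for 0 of 24 cells and 23.2% for 0 of 14 cells. Doublets were not called, since cells were sorted singly.

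For each class, cells were averaged per plate (at least 5 cells), plates were weighted equally within a stage, and stages with at least 10 cells in both classes entered the fit. limma 3.58.1 (R 4.3.3; trend option, two-sided, Benjamini-Hochberg at 0.05) was run on log2(TPM + 1) of these means, for genes averaging at least 1 TPM, with stage as a block for class differences and embryonic day for trends; the script was tested on simulated data. Stages are the only samples. For class differences the p-values rest on how far the difference varied between stages, and for trends on the scatter of stages about the line. Summaries used Python 3.11.15 and pandas 2.3.3. Named genes were the 9 members, the 3 protein-coding genes most correlated with each, and lists of CDK and cyclin partners, Cdkn1c, pocket proteins and E2F, p53 targets, ubiquitin ligase parts, Polycomb regulators and proliferation genes. Members and lists were chosen with earlier results of these data known. The alternatives varied the pseudocount, filter, scaling, plate weights, class bounds and stages.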

Additional observations from a re-analysis of the deposited data

How the results depend on the processing

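Counts of genes passing moved both with the stages and with the settings. With 1 stage or E15.0 plate 1 left out, the trend in all epithelial cells ranged from 39 genes (without E15.0) to 487, with 141 without E11.5, 129 without E12.0, 281 without E13.0, 276 without E13.5 and 248 without E14.0. The trend in Mki67-high cells ranged from 0 to 137, with no more than 5 without any 1 stage, and that in Mki67-low cells from 27 (without E15.0) to 361, with 32 without E11.5, 74 without E12.0, 198 without E13.5, 151 without E14.0 and 210 without E17.0. The comparison by Mki67 ranged from 866 to 1694 (866 without E13.5, 892 without E14.0, 872 without E15.0, 1048 without E17.0), and fibroblast-like against epithelial cells from 2267 to 7087 (3149, 2391, 2267 and 2980 without E13.0, E14.0, E15.0 and E17.0). The Shh comparison ranged from 4 to 861 (861 without E12.0, 13 without E13.0, 4, 5 and 4 without E14.0, E15.0 and E17.0), the Krt10 comparison from 0 to 17 (17 without E12.0), and the trend of the Mki67 difference gave 0 in each case. With means of log2 values the counts were 691 for the epithelial trend, 317 for that in Mki67-high cells, 214 for Shh and 1 for Krt10. After rescaling to protein-coding genes they were 314 for the Mki67-high trend, 80 for Shh and 2 for the trend of the Mki67 difference. With no filter they were 30 for the epithelial trend and 985 for Mki67, and a filter at 10 TPM gave 2793 for fibroblast-like against epithelial cells. Stage rank in place of day gave 1412 for the epithelial trend, and the 13 plates whose labels name a lane gave 90. The causes were not tested, beyond the fewer samples or genes that these alternatives hold.

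Among members, the Cdkn2c difference of fibroblast-like against epithelial cells passed under each alternative run. The Cdkn2c difference by Mki67 missed the threshold with a pseudocount of 5 TPM (adjusted p = 0.0930) and on the lane plates (0.0662); that of Cdkn2d missed it with a pseudocount of 5 TPM (0.0515), pooled cells (0.0585) and the lane plates (0.1); the Cdkn2c trend in Mki67-high cells missed it with pooled cells (0.0518). Cdkn1b passed for the epithelial trend with means of log2 values (0.0483), rescaling (0.0484) and stage rank (0.0389), as Ccnd3 did with stage rank (0.0324); Cdkn1b also passed for the Mki67-low trend with rescaling (0.0358), and for Mki67 with rescaling (0.0440), pooled cells (0.0345) and a filter at 10 TPM (0.0256). Signs turned only for values that had not passed, given here as the range with 1 stage or E15.0 plate 1 left out, in log2. In the Mki67-low trend Cdkn1a ran from -0.078 to 0.75 (-0.023 with means of log2 values) and Ccnd1 from -0.074 to 0.072 (-0.12 with means of log2 values). By Mki67, Cdkn1a ran from -0.070 to 0.36 (-0.15 pooled, -2.3e-05 with a pseudocount of 0.1 TPM), Ccnd1 from -0.25 to 0.13 (0.031 on lane plates) and Cdkn1c from -0.081 to 0.095 (-0.017 with a pseudocount of 5 TPM, -0.071 rescaled, -0.16 pooled). In the trend of that difference Cdkn1b ran from -0.082 to 0.19 (0.0075 with a pseudocount of 5 TPM) and Cdkn2d from -0.050 to 0.10. For fibroblast-like against epithelial cells Cdkn1b ran from -0.029 to 0.11 and Cdkn2d from -0.13 to 0.10 (-0.071 with means of log2 values, -0.063 rescaled, -0.022 pooled, -0.0082 with a pseudocount of 0.1 TPM, -0.025 with stricter Krt5 and Col3a1 bounds). By Shh, Cdkn2d ran from -0.33 to 0.11, and by Krt10, Cdkn1b ran from -0.30 to 0.051 and Cdkn1c from -0.31 to 0.20 (0.075 pooled). At 10 TPM in place of 1 TPM the share of epithelial cells with Cdkn2c was 1.64% in place of 15.8%.

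Pooling cells without plate weights was chosen after seeing the data for the trends within Mki67 classes, the trend of their difference, and the Shh and Krt10 comparisons. Top2a in place of Mki67 was not run, since E17.0 alone had enough epithelial cells with Top2a under 1 TPM. No paired analysis was possible beyond the stage block of the class differences in these fits, because each has 1 mean per class and stage. Averaging over plates was a choice. Many plates held at least 5 cells of both Mki67 classes, and differences within plates were not tested. The plates of a pair of classes were not always the same. At E15.0 the Mki67-high mean rests on 4 plates and the Mki67-low mean on 3. At E13.0 the Shh-high mean rests on 1 plate and the Shh-low mean on 3. Plate codes in the labels recur between stages (3 between E17.0 and E15.0, and 1 between E15.0 and E13.0). The code shared by E15.0 and E13.0 is that of plate 1 of each. The labels do not say what a code stands for, and no fit used the codes as a term. The depth behind the TPM values is unknown.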
